A study of Mus musculus with 32 samples.

Results

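Fgf15, Fgf8, Fgf17, Fgf18 and Fgf3 are secreted fibroblast growth factors of the signalling centres, or organizers, that pattern the embryonic mouse brain. These 5 genes were matched among 48576 gene identifiers by their Ensembl identifiers, and the set was chosen with earlier results of these data known. The levels described here set Fgf15, which the study took up from candidates found in these libraries by their level in the mutant midbrain (Mb) and from its known role, beside the other organizer ligands. A test of Fgf15 in the mutant Mb on these libraries is therefore not independent of that choice.

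Organizers are small groups of cells that release signals and so instruct the tissue around them. The isthmus, at the border of midbrain and hindbrain, releases Fgf8, Fgf17 and Fgf18, and these signals keep the midbrain and cerebellar fates. The anterior neural ridge at the front of the forebrain (Fb) releases Fgf8 and Fgf17. Fgf15 is the mouse counterpart of human FGF19 and is made more broadly in neural progenitors of the early brain, whereas Fgf3 is known for the otic region and hindbrain. Cells read these ligands through tyrosine kinase receptors and the Erk pathway, which turns on feedback inhibitors (Spry and Dusp genes) and Ets factors (Etv4 and Etv5).

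RNA was sequenced from Fb and Mb tissue dissected at E9.5 from B6C3F1 embryos, in 32 libraries. Each tissue had 6 WT libraries, 4 TKO_Ex libraries (a triple knockout of the type II cadherins Cdh6, Cdh8 and Cdh11, with exencephaly, an open brain), 3 DKO_Ex libraries (a Cdh8 and Cdh11 double knockout with exencephaly) and 3 DKO_CD libraries (a double knockout with an elongated Mb, called a cranial defect, and no exencephaly). The sample labels give Cdh6 and Cdh8 for DKO_CD, while the methods of the study give Cdh8 and Cdh11. WT embryos came from WT matings and the mutants from matings of triple heterozygotes, so genotype and parentage cannot be told apart. The knockout alleles are small CRISPR deletions at the translation start, so a transcript can remain, and the mutant groups were defined by genotype and appearance. The sources do not state that each library is a separate embryo, and p-values measure the spread between libraries only.

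The libraries held an estimated 1.95 to 3.19 M fragments (median 2.601). In the Mb the depth was 2.39 to 2.94 M in WT, 1.95 to 2.32 M in TKO_Ex, 3.11 to 3.19 M in DKO_Ex and 2.48 to 2.76 M in DKO_CD, so TKO_Ex was the shallowest and DKO_Ex the deepest group. In 12 DKO files the heading and the sample record name opposite DKO groups, and the headings were followed. Levels are FPKM, fragment numbers scaled by transcript length and by library size, so they can be compared between genes. Cdh6 was 0.345 to 3.10 FPKM in the TKO_Ex Mb and 1.04 to 3.55 FPKM in the WT Mb. It was 1.86 to 3.12 FPKM in the DKO_Ex Mb and 1.29 to 2.11 FPKM in the DKO_CD Mb, both inside the WT span. The low Cdh6 of most TKO_Ex Mb libraries was thus not seen in DKO_CD, for which the labels give Cdh6 as deleted. In the Mb and Fb labelled TKO_Ex replicate 3, Cdh6 reached 3.10 and 3.74 FPKM, inside the span of the WT libraries, while the other 3 TKO_Ex Mb libraries had 0.345 to 0.388 FPKM. Cdh8 was 1.14 to 10.1 FPKM in the WT Mb, 0.851 to 2.32 in TKO_Ex, 1.63 to 2.49 in DKO_Ex and at most 1.47 in DKO_CD, and Cdh11 was 17.9 to 28.7, 14.5 to 16.6, 17.6 to 18.7 and 16.6 to 27.2 FPKM. The deleted stretches are small, so these levels check the labels only in part.

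One WT Mb library stood apart in genes of the isthmus. In WT Mb replicate 5 the summed level of 8 midbrain and isthmus genes (En1, En2, Pax2, Pax5, Pax8, Wnt1, Lmx1b and Pax7) came to 43.8 FPKM, whereas the remaining 5 WT Mb libraries had sums from 117 to 232 FPKM. Its En1 was at 3.57 FPKM and its Gbx2, a gene of the hindbrain side of the isthmus, at 0.790 FPKM. Pax6, a forebrain marker, was at 52.7 FPKM there. The depth of that library, 2.55 M fragments, was within the WT range. Values that this library moves strongly are given with and without it. In bulk tissue, fewer expressing cells and less RNA per cell cannot be told apart.

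The 5 ligand genes lie on 4 chromosomes of GRCm38. Fgf15 (ENSMUSG00000031073) is at chr7:144896531-144900953 on the plus strand and Fgf3 (ENSMUSG00000031074) at chr7:144838083-144844436 on the same strand, with a gap of 52.1 kb that holds Fgf4. Fgf8 (ENSMUSG00000025219) is at chr19:45736798-45742915, Fgf17 (ENSMUSG00000022101) at chr14:70636203-70642268 and Fgf18 (ENSMUSG00000057967) at chr11:33117430-33147400, each on the minus strand. The neighbour Fgf4 was listed at 0 in 27 of 32 libraries and reached at most 0.331 FPKM. Fgf15 overlaps 2 annotated antisense genes. The higher of them, Gm26793, was at 0.128 to 2.63 FPKM, and Gm39119 was listed at 0 in 26 of 32 libraries, while Fgf15 was never under 11.5 FPKM. Libraries were directional and the strand was given to the aligner.

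Fgf8, Fgf17 and Fgf18 are close relatives, so reads could in principle be split between them. The longest stretches that their annotated transcripts share are shown because they bear on whether the levels below are separate measurements. Capitals mark the 22 of 30 bases that are the same in all 3 genes, and each window lies within one coding exon.
Fgf8: tcGTgCTGGAgAACAACTACACGGCgcTgc
Fgf17: tcGTaCTGGAgAACAACTACACGGCctTcc
Fgf18: agGTtCTGGAaAACAACTACACGGCccTga
The windows are chr19:45737214-45737243 in exon 6 of Fgf8, chr14:70636957-70636986 in exon 5 of Fgf17 and chr11:33117965-33117994 in exon 5 of Fgf18, all read on the minus strand. The longest run shared without a mismatch was 20 bases between Fgf8 and Fgf17, 15 between Fgf17 and Fgf18 and 14 between Fgf8 and Fgf18. Fgf15 shared at most 12 bases with any of the other 4. Reads were 101 cycles long, longer than any of these runs, so a full-length read matches at most one of these transcripts without a mismatch.

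In the WT brain Fgf15 was the highest of the 5 ligands in the Mb and the only one called higher in Mb than in Fb. Its FPKM in the WT Mb was 25.5 at the lowest, 27.3 at the median and 37.4 at the highest of 6 libraries, and in the WT Fb it was 11.5, 16.02 and 21.7. Every Mb library was above every Fb library. The mean was 29.8 ± 5.26 (SD, n = 6) in Mb and 16.7 ± 3.66 (SD, n = 6) in Fb, and the log2 difference (of FPKM + 1, as for all fold changes here) was 0.81 (SE 0.15, limma adjusted p = 0.00316). The exact permutation test gave p = 0.00216, the smallest that 6 libraries against 6 allow. Without WT Mb replicate 5, in which Fgf15 was at 28.4 FPKM, the difference stayed called, and over all alternatives the adjusted p was 0.00199 to 0.0106. As background, 4.66% of the 13344 genes tested were called higher in Mb, 3.6% were called lower, and 3.36% were higher without overlap between the groups.

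Fgf8, the main ligand of the isthmus, was not called between the WT Mb and Fb, and it spread widely in the Mb. Its FPKM in the 6 WT Mb libraries was 17.8, 11.3, 6.23, 24.6, listed at 0 in replicate 5, and 16.3. In the WT Fb it was 7.39 at the lowest, 14.8 at the median and 22.5 at the highest. The log2 difference between Mb and Fb was -0.57 (95% interval -1.97 to 0.84, adjusted p = 0.698), and it was 0.08 without WT Mb replicate 5. The direction therefore rests on that library. Fgf17, which extends the Fgf8 signal in space and time, followed Fgf8. It was at 16.2, 6.42, 3.23, 20.3 and 6.46 FPKM in the other 5 WT Mb libraries and was listed at 0 in replicate 5, while the WT Fb libraries had 7.80 to 17.2 FPKM (median 8.39). Neither gene was called, and the log2 difference of Fgf17 was -0.68 with all libraries and -0.14 without replicate 5.

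Fgf18, the third ligand of the isthmus, was low in the Fb. Its FPKM in the WT Mb was 5.71, 3.87, 5.02, 7.83, 0.907 in replicate 5 and 5.89. In the WT Fb it was 2.21, 2.58, 2.33, 0.977, listed at 0, and 0.427. All 5 of the other Mb libraries were above every Fb library. The log2 difference was 1.29 (SE 0.40) with an adjusted p of 0.0687, just outside the threshold. With same-numbered Mb and Fb libraries treated as pairs, Fgf18 was called. Without WT Mb replicate 5 the log2 difference was 1.58 and was called (adjusted p = 0.0105). That library was set apart by low isthmus genes and had the lowest Fgf18 of the 16 Mb libraries. Leaving it out thus raises the Mb level by construction, and the share of all genes separated without it was not computed. Fgf3 was the lowest of the ligands in 15 of 16 Mb libraries. It was at 0.173 to 2.17 FPKM (median 0.666) in the WT Mb and at 0.512 to 3.23 FPKM (median 1.36) in the WT Fb, with a log2 difference of -0.47 (adjusted p = 0.442), and a level of this size rests on few fragments (1 to 24 per library).

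**Figure D1:**
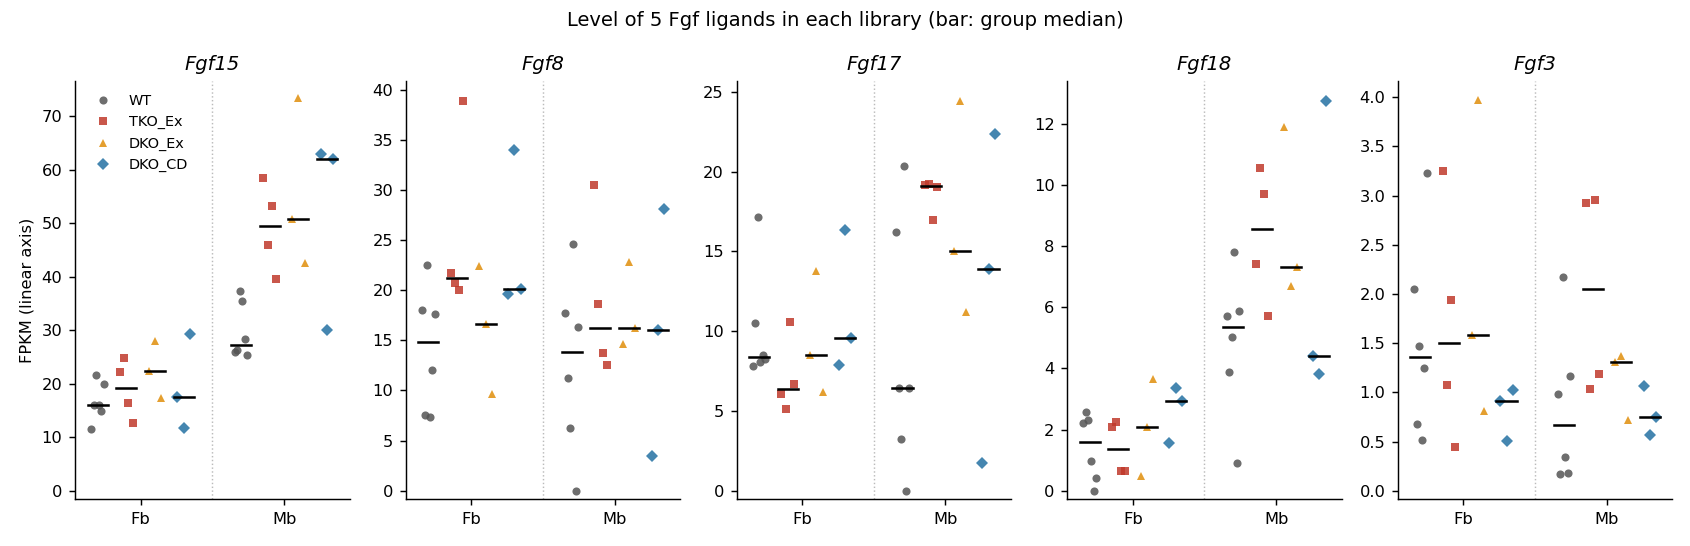
FPKM of each ligand in each of the 32 libraries, on linear axes that differ between panels, with Fb on the left and Mb on the right of each panel. Points are libraries, colours and shapes are genotype groups and bars are group medians. Fgf15 in the TKO_Ex and DKO_Ex Mb lies between 39.6 and 73.5 FPKM, above the WT Mb maximum of 37.4, whereas the groups overlap for Fgf8, Fgf17, Fgf18 and Fgf3.

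In the mutant Mb, Fgf15 was at a higher level than in the WT Mb in all 3 mutant groups, but no ligand passed the threshold of limma over all genes. The study, which used DESeq2 on read counts, did report Fgf15 as changed in the mutant Mb at an adjusted p under 0.05. It also saw more Fgf15 RNA by in situ hybridization in the open Mb of Cdh8 and Cdh11 double knockouts. The limma fits here use FPKM instead of counts, so a missing call here does not contradict that result. Fgf15 is known to act on growth and neuron formation in the early midbrain. Its FPKM was 58.5, 46.0, 53.2 and 39.6 in the 4 TKO_Ex libraries and 50.8, 73.5 and 42.5 in the 3 DKO_Ex libraries. All 7 of these libraries were above the highest WT library (37.4 FPKM). In DKO_CD it was 63.0, 30.1 and 62.0 FPKM, so that 2 libraries were above the WT range and 1 was inside it. The 3 comparisons share the same 6 WT libraries.

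The mean of Fgf15 was 49.3 ± 8.30 FPKM (SD, n = 4) in the TKO_Ex Mb, 1.65 times the WT mean. The log2 difference was 0.71 (95% interval 0.39 to 1.03), with an adjusted p of 0.143. In the DKO_Ex Mb the mean was 55.6 ± 16.1 FPKM (SD, n = 3), 1.87 times WT, and the log2 difference was 0.86 (interval 0.44 to 1.27, adjusted p = 0.336). In the DKO_CD Mb it was 51.7 ± 18.7 FPKM (SD, n = 3), 1.73 times WT, with a log2 difference of 0.72 (interval 0.20 to 1.23, adjusted p = 0.584). By the exact permutation test of Fgf15 alone, unadjusted and one of 40 such tests of single ligands, p was 0.00952 in TKO_Ex and 0.0238 in DKO_Ex, the smallest each design allows, and 0.0714 in DKO_CD. Genes called by limma made up 0.0898% of all genes in TKO_Ex, 0.0903% in DKO_Ex and 0.0375% in DKO_CD. Genes whose mutant libraries were all above all WT libraries made up 1.21%, 2.01% and 2.24%.

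Leaving out WT Mb replicate 5 moved the Fgf15 difference little, to 0.70 in TKO_Ex. Leaving out the library labelled TKO_Ex replicate 3 gave 0.67. Fgf15 rested on an estimated 190 to 700 fragments in each Mb library. The depths of TKO_Ex and of DKO_Ex did not overlap those of WT in the Mb, and the part of depth in the Fgf15 level was not tested. The summed midbrain and isthmus genes were 43.8 to 232 FPKM in WT, 160 to 215 in TKO_Ex, 175 to 202 in DKO_Ex and 106 to 200 in DKO_CD, with no gene of that list at 0 throughout a group. The 10 forebrain genes summed to 21.3 to 73.0 FPKM in WT, 21.0 to 45.6 in TKO_Ex, 31.0 to 58.6 in DKO_Ex and 20.1 to 65.5 in DKO_CD, and of these genes only Rax and Six6 were at 0 throughout any Mb group. The part of tissue content in the Fgf15 level was not tested. With the DKO libraries grouped by sample record instead of heading, the values of the DKO groups change places.

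The ligands of the isthmus had higher averages in the mutant Mb as well, with a spread in WT that covered most of the mutant values. Fgf8 was at 30.5, 18.6, 13.7 and 12.6 FPKM in TKO_Ex, 14.6, 22.8 and 16.3 in DKO_Ex and 3.47, 16.1 and 28.1 in DKO_CD. The WT libraries ran from 0 to 24.6 FPKM, and 1 TKO_Ex and 1 DKO_CD library exceeded them. The log2 differences were 0.98, 0.97 and 0.46, and the intervals of all 3 included 0 (-0.70 to 2.66 in TKO_Ex). Without WT Mb replicate 5 the TKO_Ex difference was 0.33 (interval -0.48 to 1.14), the DKO_Ex difference 0.32 and the DKO_CD difference -0.19, so there the direction turned.

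Fgf17 was the most even ligand within the TKO_Ex Mb. Its FPKM was 19.2, 19.2, 17.0 and 19.0 there, against 0 to 20.3 in WT (median 6.44), so that the TKO_Ex values lay near the top of the WT range. The log2 difference was 1.56 (interval 0.04 to 3.08, unadjusted p = 0.0454, adjusted p = 0.586), and it was 1.01 (interval 0.09 to 1.93, adjusted p = 0.651) without WT Mb replicate 5. The exact permutation test gave p = 0.0762 with 4 against 6 libraries. In DKO_Ex Fgf17 was at 11.2 to 24.4 FPKM, 1 library being above the WT maximum, and in DKO_CD at 1.72, 13.9 and 22.4 FPKM, with log2 differences of 1.36 and 0.56 that were not called (adjusted p = 0.904 and 0.946). These differences of Fgf17 were 0.81 and 0.017 without WT Mb replicate 5. DKO_CD replicate 1 was the second lowest of the 16 Mb libraries in both Fgf8 and Fgf17, and it was the second highest in Fgf15.

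Fgf18 was at 7.41, 10.6, 9.69 and 5.72 FPKM in the TKO_Ex Mb, 11.9, 6.70 and 7.34 in DKO_Ex and 4.42, 3.82 and 12.8 in DKO_CD. In TKO_Ex 2 of 4 libraries were above the WT maximum of 7.83 FPKM, as was 1 library of each DKO group. The log2 differences were 0.78 (interval -0.03 to 1.59), 0.82 and 0.42, and none was called. The differences of Fgf18 were 0.48, 0.52 and 0.12 without WT Mb replicate 5. Fgf3 was at 2.92, 1.03, 2.96 and 1.18 FPKM in the TKO_Ex Mb, with a log2 difference of 0.75 (interval -0.01 to 1.51, adjusted p = 0.602). In the DKO comparisons of the Mb, Fgf3 was below the filter of a mean of 1 FPKM, with 0.719 to 1.37 FPKM in DKO_Ex and at most 1.06 FPKM in DKO_CD. Thus limma called 0 of 5 ligands in TKO_Ex and 0 of 4 in each DKO group, while an unadjusted p under 0.05 was reached by Fgf15 in all 3 and by Fgf17 in TKO_Ex.

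**Figure D2:**
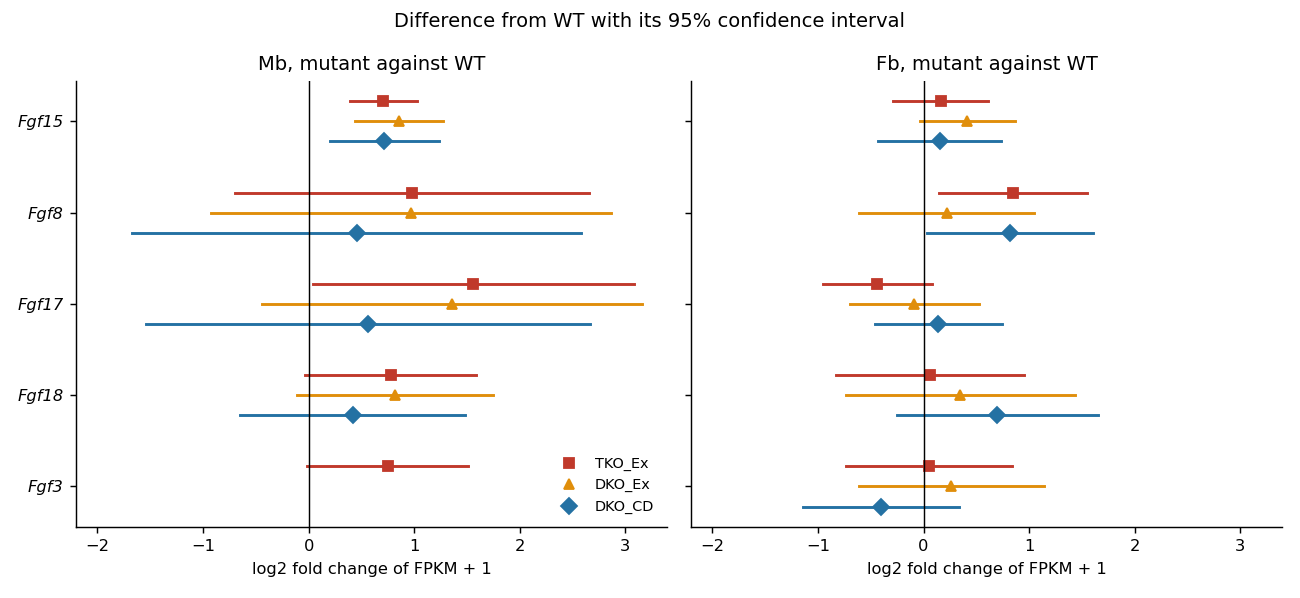
Log2 fold change of FPKM + 1 between each mutant group and WT in the Mb (left) and the Fb (right), for 5 ligands. Symbols are the estimates of limma and lines their 95% confidence intervals; Fgf3 has no value in the DKO Mb comparisons. The intervals of Fgf15 in the Mb, such as 0.39 to 1.03 in TKO_Ex, are short and lie above 0, and those of Fgf8 in the Mb are much wider.

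In the mutant Fb, Fgf8 was the ligand with the largest difference from WT on the log2(FPKM + 1) scale in TKO_Ex and DKO_CD. The anterior neural ridge and the adjoining ectoderm are the known sources of Fgf8 there. Its FPKM was 21.7, 20.7, 20.0 and 38.9 in TKO_Ex, 22.4, 16.6 and 9.60 in DKO_Ex and 19.6, 34.0 and 20.1 in DKO_CD, against 7.39 to 22.5 in WT. Only 1 library of TKO_Ex and 1 of DKO_CD were outside the WT range. The log2 difference was 0.85 (interval 0.15 to 1.55, adjusted p = 0.489) in TKO_Ex and 0.82 (interval 0.03 to 1.603, adjusted p = 0.572) in DKO_CD, and neither was called. The exact permutation test of Fgf8 gave p = 0.0381 in TKO_Ex (4 against 6 libraries) and p = 0.119 in DKO_CD. In DKO_Ex the Fgf8 difference was 0.22. By the ratio of means, the low Fgf18 was ahead of Fgf8 in the DKO_CD Fb, at 1.85 times WT against 1.73 times.

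Fgf15 was not called in the mutant Fb. It was at 22.3, 24.8, 16.3 and 12.7 FPKM in TKO_Ex, 22.4, 28.0 and 17.3 in DKO_Ex and 17.6, 11.7 and 29.4 in DKO_CD, against 11.5 to 21.7 FPKM in WT. The log2 differences were 0.16 (interval -0.29 to 0.61), 0.42 (interval -0.03 to 0.86) and 0.15, which leaves room for a difference of the size seen in the Mb in DKO_Ex. Fgf17 was at 5.12 to 10.6 FPKM in the TKO_Ex Fb, with a log2 difference of -0.44 (interval -0.95 to 0.08, adjusted p = 0.641), and 3 of 4 libraries were below the lowest WT library (7.80 FPKM). Fgf18 stayed at 0.486 to 3.66 FPKM and Fgf3 at 0.445 to 3.97 FPKM over all mutant Fb libraries. None of the 5 ligands was called in any Fb comparison, where limma called 0.0603% of all genes in TKO_Ex, 0.0759% in DKO_Ex and 0.0378% in DKO_CD.

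Whether a mutation shifted a ligand more in the Mb than in the Fb was tested as an interaction. For Fgf15 the mutant difference was larger in the Mb by 0.55 in TKO_Ex (interval 0.00 to 1.09, unadjusted p = 0.0493, adjusted p = 0.762), by 0.44 in DKO_Ex and by 0.56 in DKO_CD. For Fgf17 it was larger by 1.996 in TKO_Ex (interval 0.36 to 3.63, unadjusted p = 0.0196, adjusted p = 0.734). No ligand was called, and over all genes limma called 0.0149% in TKO_Ex, 0% in DKO_Ex (0 genes, with 518 at an unadjusted p under 0.05) and 0.00746% in DKO_CD. A difference between the tissues is thus not shown for any ligand.

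Between DKO_Ex, with an open brain, and DKO_CD, with an elongated Mb, no ligand was called. By the labels, though not by the methods of the study, these groups also differ in the cadherins deleted. Genotype and appearance therefore cannot be told apart in this comparison, and headings and sample records name the groups the opposite way. Fgf15 was 0.14 higher in the DKO_Ex than in the DKO_CD Mb (interval -0.62 to 0.90), Fgf8 0.51, Fgf17 0.80 and Fgf18 0.40, all on the log2 scale and all with intervals that include 0. Over all genes, limma called 0.045% there, and 3 against 3 libraries cannot give an exact permutation p below 0.1.

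Across the groups, the order of the Fgf15 medians was the 3 mutant Mb groups (49.6 to 62.0 FPKM), the WT Mb (27.3), the mutant Fb groups (17.6 to 22.4) and the WT Fb (16.02). In that order the ranges of neighbours overlapped except between the TKO_Ex Mb and the WT Mb. For Fgf18 the 4 Mb groups (medians 4.42 to 8.55 FPKM) were above the 4 Fb groups (1.36 to 2.95 FPKM), and the only neighbours without overlap were the DKO_CD Mb and the DKO_CD Fb. The share of all genes that separate these groups was not computed. Such a separation is common with 3 against 3 libraries, as 862 of 13338 genes were higher without overlap in the DKO_Ex than in the DKO_CD Mb. For Fgf8, Fgf17 and Fgf3 every pair of neighbours overlapped. Fgf15 was the highest ligand in 16 of 16 Mb libraries and in 9 of 16 Fb libraries, Fgf8 being above it in Fb libraries such as TKO_Ex replicate 4 (38.9 against 12.7 FPKM).

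From library to library in the Mb, Fgf8, Fgf17 and Fgf18 varied together. Over 16 libraries Fgf8 and Fgf17 had a Pearson's r of 0.94 (permutation p = 1e-05, the smallest that the resamples allow) and a Spearman's rho of 0.83 (permutation p = 0.00023), on log2(FPKM + 1). This was one of 10 pairs, and p-values are unadjusted. Without the 2 libraries with Fgf8 farthest from its median, WT replicate 5 and DKO_CD replicate 1, r was 0.78, and with each genotype group centred on its own mean r was 0.94. Fgf18 had an r of 0.81 with Fgf8 (permutation p = 0.00108, rho = 0.64 with p = 0.00859) and of 0.80 with Fgf17 (permutation p = 0.00063, rho = 0.71 with p = 0.00298). Without those 2 libraries these were 0.45 and 0.53, so the strength of both relations rests on them.

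The values of Fgf15 with the isthmus ligands were lower, and the difference between correlations was not tested. Its r was 0.27 with Fgf8 (permutation p = 0.338, rho = 0.24 with p = 0.359), 0.34 with Fgf17 (p = 0.208, rho = 0.46 with p = 0.078) and 0.54 with Fgf18 (p = 0.0265, rho = 0.51 with p = 0.0484). Without WT replicate 5 the r of Fgf15 was 0.069 with Fgf8, 0.20 with Fgf17 and 0.51 with Fgf18. With each genotype group centred the r of Fgf15 and Fgf18 was 0.28 (permutation p = 0.299). The r of Fgf15 and Fgf3 was 0.51 (permutation p = 0.0447, rho = 0.51 with p = 0.0456) and 0.45 once centred (p = 0.0786), and it was 0.45 without WT replicate 5 (p = 0.0922). Fgf3 had an r of 0.30 with Fgf8, 0.30 with Fgf17 and 0.46 with Fgf18, and these were -0.042, 0.028 and 0.26 without WT replicate 5, so the relations of Fgf3 with Fgf8 and Fgf17 rest on that library.

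The same split appeared against the summed midbrain and isthmus genes, a measure chosen after the values had been seen. In the Mb r was 0.88 for Fgf8 (rho 0.69), 0.85 for Fgf17 (rho 0.77) and 0.86 for Fgf18 (rho 0.69), with permutation p of 0.00083, 0.00043 and 0.00018, and 0.40 for Fgf15 (rho 0.32, p = 0.122) and 0.36 for Fgf3 (rho 0.22, p = 0.177). Without WT replicate 5 the first 3 were 0.62, 0.66 and 0.67, that of Fgf15 was 0.31 and that of Fgf3 was 0.052. Without the 2 libraries farthest in the summed genes, WT replicate 5 and DKO_CD replicate 2, they were 0.77, 0.85 and 0.59.

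**Figure D3:**
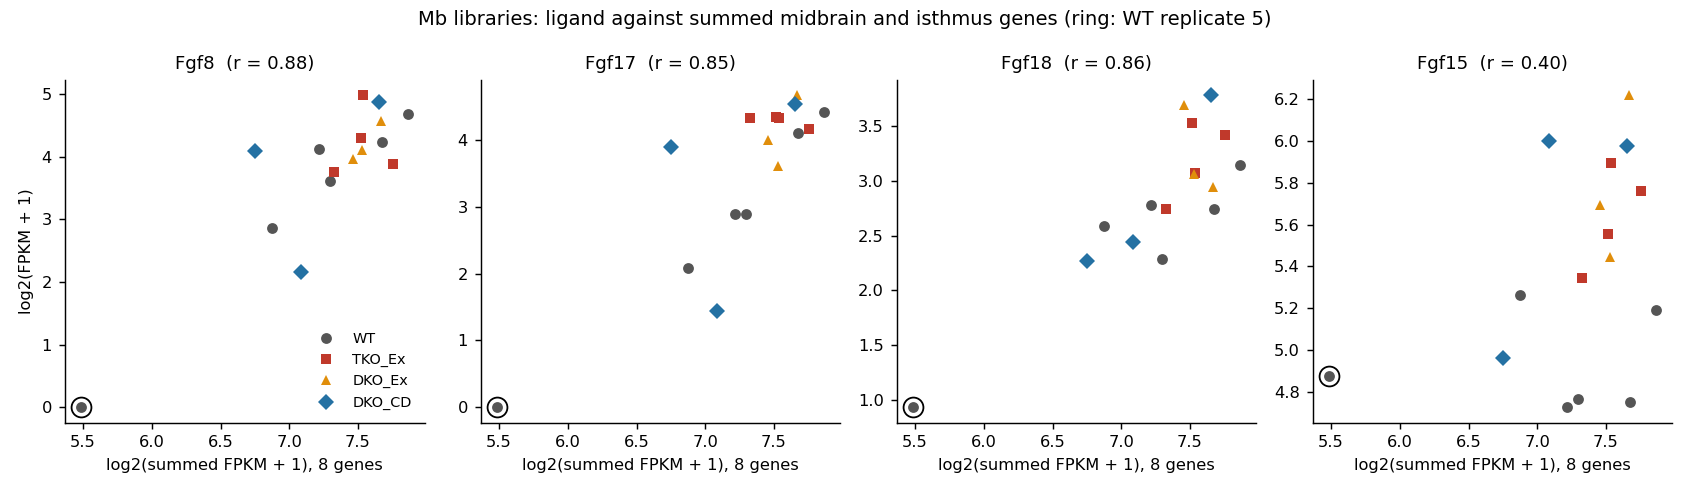
Level of 4 ligands, log2(FPKM + 1), against the summed level of 8 midbrain and isthmus genes, log2(summed FPKM + 1), in the 16 Mb libraries. Points are libraries by genotype and the ring marks WT replicate 5. Fgf8, Fgf17 and Fgf18 run along the summed level with r of 0.88, 0.85 and 0.86, and r is 0.40 for Fgf15.

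In the Fb, Fgf8 was set beside the summed level of 7 surface ectoderm genes (Epcam, Krt8, Krt18, Cdh1, Trp63, Grhl2 and Tfap2a), also chosen after the values had been seen. The sum was 63.2 to 106 FPKM in WT, 95.4 to 236 in TKO_Ex, 88.7 to 176 in DKO_Ex and 84.3 to 219 in DKO_CD, and no gene of the list was at 0 throughout a group. Fgf8 had an r of 0.67 with it over 16 Fb libraries (permutation p = 0.00485, rho = 0.71 with p = 0.00258). Without TKO_Ex replicate 4 and DKO_CD replicate 2, which had the highest sums, r was 0.40, so the relation rests on them. With each genotype group centred, r was 0.54 for Fgf8 (permutation p = 0.0321), 0.71 for Fgf17 (permutation p = 0.0025) and -0.54 for Fgf15 (permutation p = 0.0324). Uncentred, Fgf17 had an r of 0.35 (permutation p = 0.187, rho = 0.22 with p = 0.414), and for Fgf15, Fgf18 and Fgf3 it was between -0.26 and 0.00. For Fgf15 the uncentred r was -0.26 with all libraries and 0.22 without TKO_Ex replicate 4 and DKO_CD replicate 2, so its direction rests on them. The centred values were not computed without these libraries. The part of ectoderm in the Fgf8 level of the mutant Fb was not tested further.

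**Figure D4:**
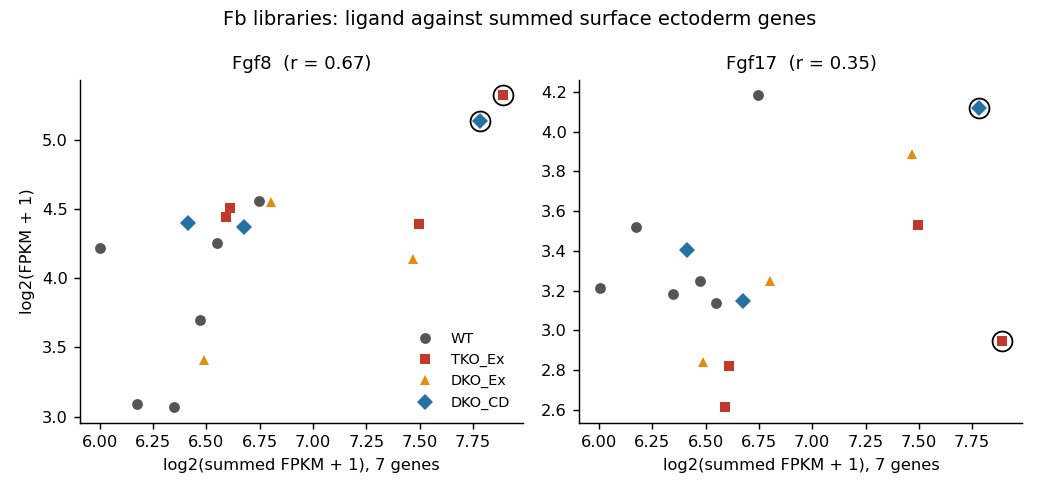
Level of Fgf8 and Fgf17, log2(FPKM + 1), against the summed level of 7 surface ectoderm genes, log2(summed FPKM + 1), in the 16 Fb libraries, with genotypes as colours and shapes. Rings mark TKO_Ex replicate 4 and DKO_CD replicate 2, which have the highest sums; r is 0.67 for Fgf8 and 0.35 for Fgf17.

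Among 13440 genes whose mean reached 1 FPKM, those most like each ligand over all 32 libraries were listed by Pearson's r, as a description, since the libraries share tissue and genotype groups. Fgf15 was most like Ccnd1, the cyclin of the early cell cycle (r = 0.86), Cdh22 (0.85) and Tnfrsf19 (0.83). Ccnd1 was at 117 ± 11.2 FPKM (SD, n = 6) in the WT Mb, 144 ± 6.24 (n = 4) in the TKO_Ex Mb, 150 ± 15.3 (n = 3) in the DKO_Ex Mb and 132 ± 3.32 (n = 3) in the DKO_CD Mb. In the Fb it was at 85.1 ± 7.97 FPKM (SD, n = 6) in WT, 93.4 ± 12.5 (n = 4) in TKO_Ex, 107 ± 5.16 (n = 3) in DKO_Ex and 117 ± 5.54 (n = 3) in DKO_CD. Every Fb library of both DKO groups was above the highest WT Fb library (98.1 FPKM). Such a separation was found for 192 of 13178 genes in the DKO_Ex Fb and 387 of 13240 in the DKO_CD Fb. In the Mb, TKO_Ex (lowest 136 FPKM) and DKO_Ex (lowest 133 FPKM) also lay above the WT maximum of 128.36 FPKM. This held for 162 of 13361 and 267 of 13295 genes, and DKO_CD (lowest 128.26 FPKM) overlapped WT. Fgf8 was most like the Fgf target Etv5 (0.83), Fgf17 (0.76) and Grb7 (0.73), and Fgf17 was most like Etv5 (0.88) and the feedback inhibitors Spry1 (0.87) and Spry2 (0.84). Fgf18 was most like Pax8, a transcription factor of the isthmus (0.87), Golm1 (0.86) and Klhl14 (0.84). No gene came near Fgf3, whose best matches were Kdelc1 (0.62), Lrsam1 (0.60) and Phf20 (0.58).

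Among the genes that receive and answer Fgf signals, some differed between WT Mb and Fb. Of 5 receptor genes 4 were tested, and limma called 2 higher in Mb, Fgfr3 with a log2 difference of 1.57 and Fgfr2 with 0.85. Without WT Mb replicate 5 it called 1, Fgfr2 being lost (0.69, adjusted p = 0.0628). Of 13 feedback and target genes 2 were higher in Mb, namely Cnpy1, a positive regulator of Fgf signalling at the isthmus, with 4.61 and Spred2 with 0.37. The median log2 difference of these 13 was 0.09, beside -0.0033 over all genes. The call of Spred2 was lost when most of the single libraries were left out in turn. Of the 17 remaining Fgf ligands only Fgf10 and Fgf13 passed the filter, and Fgf10, known for epithelial and craniofacial growth, was lower in the Mb (log2 difference -0.81, adjusted p = 0.0316, and 0.052 without WT Mb replicate 5). The regional genes separated the tissues. Of 8 midbrain and isthmus genes 7 were higher in the Mb (En2 5.20, En1 4.51, Wnt1 3.09, Pax5 2.84), and of 10 forebrain genes 9 were lower (Six3 -4.80, Lhx2 -4.54, Nkx2-1 -4.20). Of genes of the surrounding tissues, 6 of 6 surface ectoderm genes and 5 of 6 head mesenchyme genes tested were lower in the Mb. Of 2 neural crest genes tested 1 was lower, and none of 3 endothelial and 4 primitive red cell genes was called. Over all genes, 4.66% were called higher in the Mb and 3.6% lower.

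In the mutant Mb none of these genes was called. The 13 feedback and target genes had a median log2 difference of 0.37 in TKO_Ex, where 12 were above 0, of 0.40 in DKO_Ex, where 13 were above 0, and of 0.13 in DKO_CD, where 9 were above 0. The medians over all genes were 0.02, 0.03 and 0.02. Spry2 had the highest value in TKO_Ex (0.93, adjusted p = 0.680) and in DKO_Ex (0.92), and Cnpy1 in DKO_CD (0.62). Without WT Mb replicate 5, in which Etv4 was at 0.520 FPKM and Spry1 at 2.51 FPKM, the medians were 0.25, 0.15 and -0.06, so for DKO_CD the direction turned. Without that library 11, 12 and 3 of the 13 genes were above 0, and the share of all genes above 0 was not computed. The 4 receptors had medians of -0.30, 0.03 and -0.06 with all libraries.

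**Figure D5:**
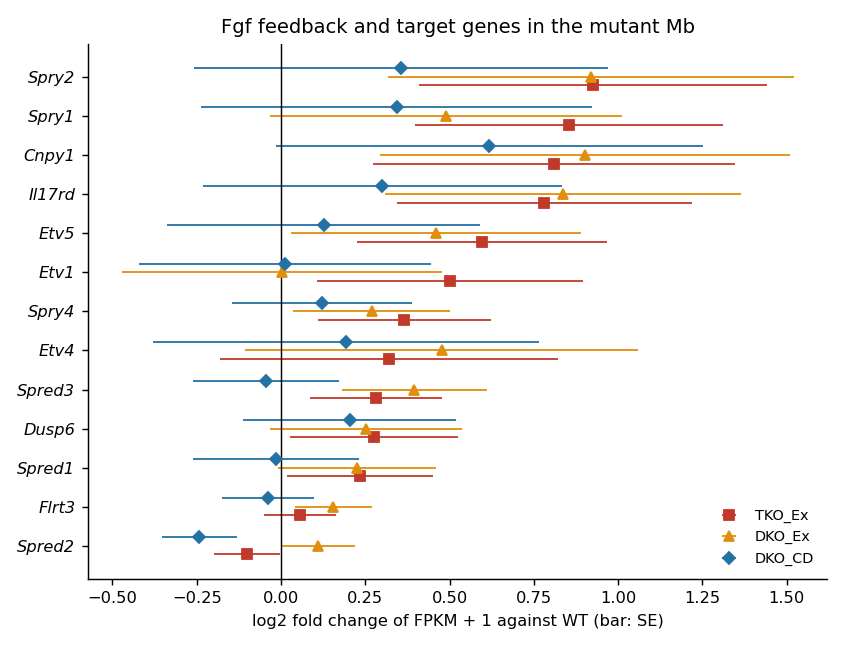
Log2 fold change of FPKM + 1 against WT for 13 Fgf feedback and target genes in the Mb of the 3 mutant groups. Symbols are estimates of limma and bars their SE; genes are ordered by TKO_Ex. Most TKO_Ex and DKO_Ex values lie above 0, from -0.10 (Spred2) to 0.93 (Spry2) in TKO_Ex, none of them past the threshold.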

How the data were processed

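FPKM values per gene, one file per library, were deposited by the authors, who had mapped strand-specific reads to GRCm38 (TopHat2) and quantified them with Cufflinks. Tool versions and the annotation are not given in the sources used here, and read counts were not used here. Of 48576 identifiers, 48218 were found in GENCODE M21, the source of positions and sequences, and 65 repeated identifiers were summed. Library depth was inferred from the value of 1 fragment in 771 long genes (at least 4000 bp), where 73.1% to 82.8% of low values per library lay within 0.1 of a whole fragment.

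Differences were tested with limma 3.58.1 (R 4.3.3) on log2(FPKM + 1), with a trend of variance on level, for genes averaging 1 FPKM or more in that fit. Each comparison had its own fit, and a Benjamini-Hochberg adjusted p under 0.05 was the threshold. This scale understates the changes of low genes. Single ligands were also tested by two-sided exact permutation tests, and relations by 100000 permutations (SciPy 1.17.1, Python 3.11.15). The fits were tested on simulated data.

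The members and gene lists were chosen with earlier results of these data known. Besides the members, the genes named were the 3 deleted cadherins, the 3 genes most like each member, from each list up to 4 genes past the threshold between WT Mb and Fb, and list genes past it in a mutant comparison, of which there were none. A gene that this rule names is not reported here. Other genes were named after their values were seen.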

Additional observations from a re-analysis of the deposited data

Results flagged for a closer look

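A single library lay far from the others of its group, by Dixon's criterion, in 3 of 20 groups of 4 to 6 libraries, where chance alone would give about 1 in 20. Fgf8 was at 38.9 FPKM in the Fb of TKO_Ex replicate 4, against 20.0 to 21.7 FPKM in the other 3 libraries, and that library also had the highest summed surface ectoderm genes (236 FPKM). Fgf17 was at 17.0 FPKM in the Mb of TKO_Ex replicate 3, against 19.0 to 19.2 FPKM in the other 3, a gap that is small beside the WT range, and this is the library whose Cdh6 lay within the WT range. Fgf17 was at 17.2 FPKM in the Fb of WT replicate 3, against 7.80 to 10.5 FPKM in the other 5.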

How the results depend on the processing

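Of 1060 values of the ligands' fold changes under alternative settings, 998 kept their direction and side of the threshold, 4 moved past it (Fgf18 between WT Mb and Fb) and 58 changed sign, all 58 among differences that were not called. Fgf15 was called between WT Mb and Fb under every alternative run, and no ligand was called in a mutant comparison under any. The ligands called between WT Mb and Fb were 2 instead of 1 with a pseudocount of 5, with all 8 groups in one fit and with the replicate block, and 1 to 2 when single libraries were left out. Of 10 relations between ligands, 5 had a p under 0.05, and 3 did with each genotype group centred or without WT Mb replicate 5.

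Genes called over the alternatives numbered 717 to 1317 between WT Mb and Fb (1102 as reported). For TKO_Ex they were 0 to 52 in Mb (12) and 0 to 32 in Fb (8), for DKO_Ex 1 to 17 in Mb (12) and 2 to 14 in Fb (10), and for DKO_CD 1 to 12 in Mb (5) and 2 to 15 in Fb (5). The interactions gave 0 to 5 (TKO_Ex, 2), 0 to 1 (DKO_Ex, 0) and 0 to 5 (DKO_CD, 1), and DKO_Ex against DKO_CD 0 to 10 (6). The deviations of same-numbered Fb and Mb libraries correlated by 0.0076 to 0.14, not over 0.1 for every pair, and the labels do not state a pairing, so the numbers were not taken to pair them. As a hint from the data, 13 of 16 correlated best with their own number. The fits between Mb and Fb, and the interactions, thus leave out a pairing that may be present. Under the replicate block Fgf18 was called between WT Mb and Fb (adjusted p = 0.0272). In the single-tissue mutant comparisons that block joined WT and mutant libraries by number alone. The deviations of such libraries correlated by -0.086 to 0.049, and WT libraries without a mutant of their number did not enter the difference. Those comparisons had 0 to 4 calls under the block, the cause of which was not tested.

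Signs turned as follows, on the log2 scale, and the cause was not tested. The replicate block, which here joined WT and mutant libraries by number alone, gave -0.37 and -0.28 for Fgf18 in the TKO_Ex and DKO_Ex Fb. It gave -0.059 for Fgf17 in the DKO_CD Fb. Grouping DKO libraries by sample record exchanges the groups by construction. It gave 0.14 for Fgf17 and -0.41 for Fgf3 in the DKO_Ex Fb, -0.089 and 0.26 in the DKO_CD Fb, interactions of -0.36 for Fgf8 and -0.28 for Fgf18 in DKO_Ex and of 0.75 and 0.47 in DKO_CD, and -0.14, -0.51, -0.80 and -0.40 for Fgf15, Fgf8, Fgf17 and Fgf18 between DKO_Ex and DKO_CD. A pseudocount of 5 gave interactions of -0.11 for Fgf8 in TKO_Ex and -0.034 for Fgf3 in DKO_Ex, and a pseudocount of 0.1 gave 0.078 for Fgf8 in DKO_CD.

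Leaving out single libraries gave -0.85 to 0.084 for Fgf8 between WT Mb and Fb. In the TKO_Ex Fb it gave -0.16 to 0.22 for Fgf18 and -0.21 to 0.31 for Fgf3. In the DKO_Ex Fb it gave -0.042 to 0.53 for Fgf8, -0.37 to 0.15 for Fgf17, -0.028 to 0.80 for Fgf18 and -0.14 to 0.59 for Fgf3. In the DKO_CD Mb it gave -0.19 to 1.23 for Fgf8, -0.063 to 1.49 for Fgf17 and -0.060 to 0.70 for Fgf18, and in the DKO_CD Fb -0.17 to 0.45 for Fgf15 and -0.14 to 0.35 for Fgf17. The interactions ran from -0.52 to 0.42 for Fgf8 in TKO_Ex, -0.29 to 0.44 for Fgf3 in DKO_Ex, and in DKO_CD from -1.01 to 0.41 for Fgf8, -0.20 to 1.35 for Fgf17 and -0.76 to 0.00094 for Fgf18. Between DKO_Ex and DKO_CD the ranges were -0.20 to 0.32 for Fgf15, -0.26 to 1.09 for Fgf8 and -0.13 to 1.42 for Fgf17. Depth limits Fgf18 in the Fb and Fgf3, which rest on at most 12 and 24 fragments per library.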
